A study of Mus musculus with 9 samples.

Results

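Transcripts of 36 mouse genes for redox defence and the pentose phosphate pathway were followed through the activation of CD4+ T cells and the loss of the bone morphogenetic protein receptor BMPR1a. The genes were taken by symbol from a list of thioredoxins, peroxiredoxins, glutathione enzymes, glutaredoxins, superoxide dismutases, NRF2 pathway genes and pentose phosphate enzymes. All 36 were among the 25759 gene rows of the expression table. The study holds 9 RNA sequencing libraries in 3 groups of 3. Naive wild-type (WT) cells were CD4+ CD44- CD62+ cells sorted directly from lymph node and spleen. Activated WT cells and activated cells of conditional knockout mice labelled BMPR1a/CD4cre, called knockout or KO here, were grown as whole suspensions of those organs. The culture lasted 3 days and held ConA, a lectin that stimulates T cells, at 2 ug/ml and bacterial LPS at 10 ng/ml. After that culture the CD4+ CD44+ CD62- (CD62L- in the sample source) cells were sorted. In all 3 groups the mice were C57BL/6, aged 8 to 12 weeks, carried the Foxp3GFP reporter transgene, and cells positive for the reporter were sorted out. The Cre recombinase of the knockout is driven by the Cd4 promoter, which is active in developing T cells. Whether replicates are separate animals or cultures is stated nowhere in the labels, so every p-value rests on the variation among libraries, which may be partly technical.

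Dividing T cells produce reactive oxygen species, and 2 parallel thiol systems, thioredoxin and glutathione, remove peroxides and repair oxidized proteins. Both take their electrons from NADPH, which the oxidative branch of the pentose phosphate pathway makes from glucose 6-phosphate, while its non-oxidative branch exchanges sugars with glycolysis and yields ribose for nucleotides. The transcription factor NRF2, encoded by Nfe2l2, is held at low protein level by KEAP1. When released by oxidants, NRF2 binds antioxidant response elements of genes such as Nqo1, Hmox1, Srxn1, Txnrd1, Gclm and Prdx1.

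Levels are in FPKM, fragments scaled to transcript length and library size, so that genes of different length can be set side by side. The number of reads behind a value is unknown. Between 12922 and 13395 genes per library reached 1 FPKM. A gene was tested if its mean over the 9 libraries was at least 0.5 FPKM, which held for 15126 genes and for 35 of the 36 members. Nqo1 was the exception. The test was limma's moderated test on log2(FPKM + 1), two-sided, and a gene was called at a Benjamini-Hochberg adjusted p under 0.05 over all tested genes. Log2 fold changes are on that scale and understate changes of genes at low levels. The targeted gene Bmpr1a was at 2.16 ± 0.760 FPKM (SD, n = 3) in activated WT and 1.36 ± 0.505 in knockout libraries, and these overlapped (limma adjusted p = 0.261). Its gene-level value counts all exons, also those outside a deleted part, so it does not check the genotype. A list of 9 T cell marker genes, Cd4 among them, summed to between 4280 and 4950 FPKM in every library. That sum does not tell CD4 from CD8 T cells.

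Levels differed widely between members. Their summed level was 0.314% to 0.351% of the FPKM of all protein-coding genes in naive, 0.381% to 0.393% in activated WT and 0.427% to 0.442% in knockout libraries, and the 3 ranges did not overlap. Against the FPKM of all gene rows, protein-coding or not, the order was another, with 0.0326% to 0.0503% in naive, 0.0165% to 0.0211% in activated WT and 0.0241% to 0.0353% in knockout libraries. That total ran from 3446200 to 5732000 FPKM in naive and from 10296000 to 13114000 FPKM in activated WT libraries, so neither share is a measure of the members alone. In naive cells the highest member was Txnip (386 ± 67.7 FPKM), the thioredoxin-binding inhibitor, followed by the cytosolic superoxide dismutase gene Sod1 (186 ± 21.3) and the peroxiredoxin gene Prdx1 (135 ± 13.9). In activated WT cells Sod1 came first (316 ± 25.1), ahead of Txnip (270 ± 14.2), Prdx1 (151 ± 11.8) and the thioredoxin gene Txn1 (141 ± 21.3), of which Prdx1 and Txn1 did not differ beyond their spread. In the knockout the order was Sod1 (366 ± 5.11), Txn1 (223 ± 24.3), Prdx1 (219 ± 25.4) and Txnip (172 ± 57.8), and here the last 3 overlapped in part. Srxn1, Nqo1 and the cystine transporter gene Slc7a11 stayed under 2 FPKM in each library. The median coefficient of variation of the 35 tested members within a group was 9.80%, 8.98% and 6.17% in naive, activated WT and knockout libraries.

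**Figure D1:**
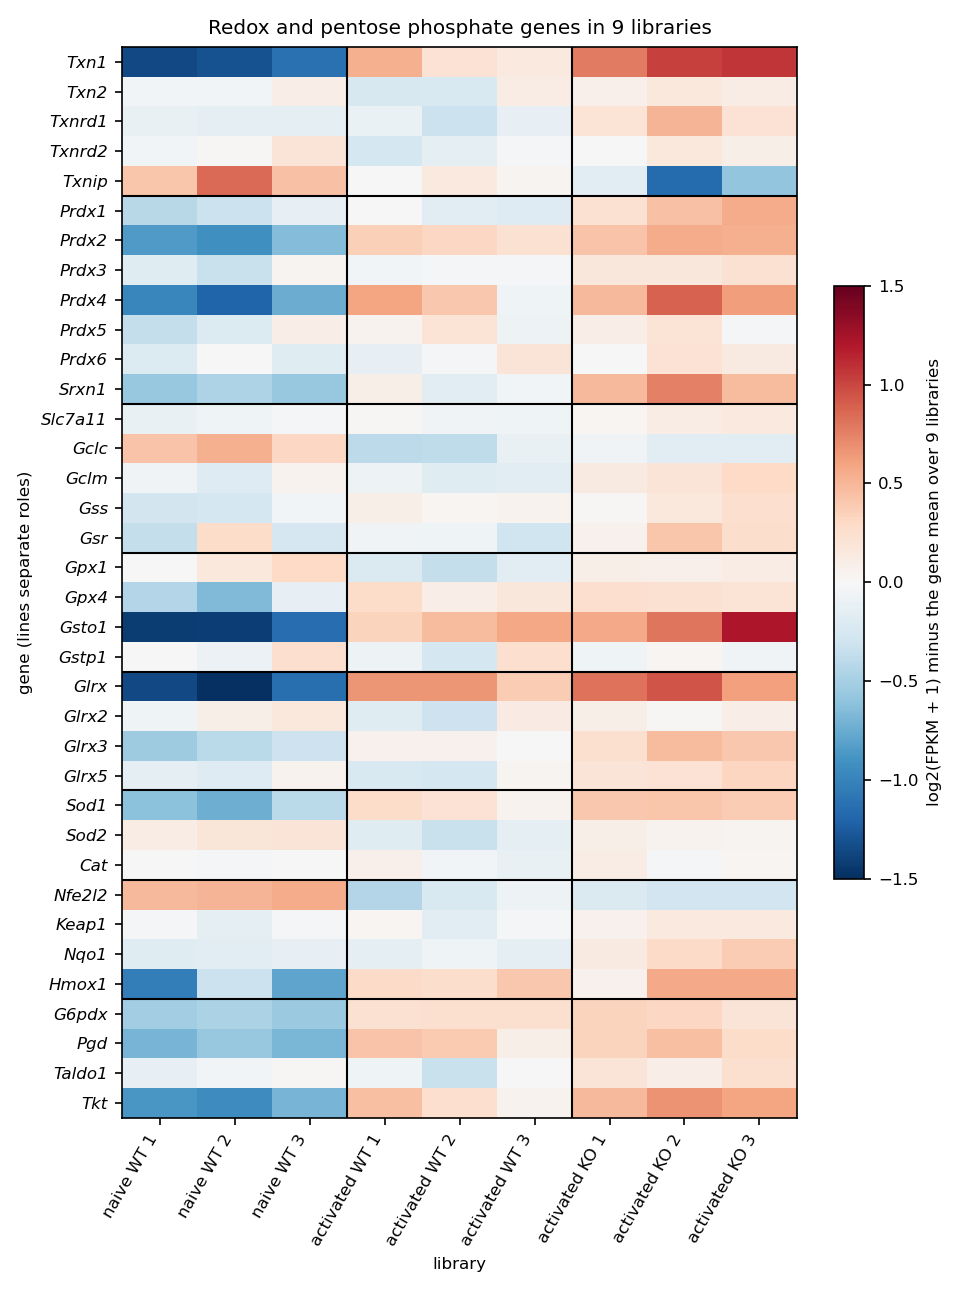
Heat map of the 36 members (rows, grouped by role) in the 9 libraries (columns). Colour is log2(FPKM + 1) minus the gene's mean over the 9 libraries. Txn1, Gsto1 and Glrx are low in the 3 naive libraries and high in the 6 activated ones, and Nfe2l2 and Gclc show the opposite.

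On activation of WT cells, some genes of both thiol systems and of the pentose phosphate pathway rose, while others, among them the gene for NRF2 itself, fell. Of 35 tested members 14 rose, or 40%, and 26.2% of all tested genes did. In the other direction 4 members fell, or 11.4%, and 25.8% of all tested genes did. The risers were Txn1, Prdx2, Prdx4, Srxn1, Gss, Gpx4, Gsto1, Glrx, Glrx3, Sod1, Hmox1, G6pdx, Pgd and Tkt, and the falls were Gclc, Gpx1, Sod2 and Nfe2l2. The groups did not overlap at 14 members higher (40.0%, against 29.6% of all tested genes) and 5 lower (14.3%, against 29.8%). The median log2 fold change of the tested members was 0.13, against -0.01 over all tested genes. The groups differ in stimulation, culture and sort together, and these cannot be told apart. With quantile normalization Srxn1 and Gss lost their call, and Gss did so in 11 of 19 alternatives. The other 16 of the 18 called members kept their call in all alternatives that tested them.

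In the thioredoxin system only the gene of the cytosolic carrier was called. Txn1 (ENSMUSG00000028367, chromosome 4, 57943373 to 57956411, minus strand, GRCm38) encodes the small dithiol protein that reduces peroxiredoxins and ribonucleotide reductase. It was at 44.1, 45.4 and 51.9 FPKM in the naive and at 165, 132 and 126 FPKM in the activated WT libraries. Every activated library lay above every naive one (log2 fold change 1.56, SE 0.127, limma adjusted p = 5.67e-05). Its reductase gene Txnrd1 stood at 20.6 ± 0.208 and 19.9 ± 1.73 FPKM (limma adjusted p = 0.691). The mitochondrial partners Txn2 (68.7 ± 4.14 and 63.2 ± 9.21 FPKM) and Txnrd2 (8.19 ± 0.827 and 7.02 ± 0.654) were not called either. Txnip was lower in each activated than in each naive library but missed the test (log2 fold change -0.50, SE 0.235, limma adjusted p = 0.108).

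Of the 6 peroxiredoxin genes, whose products reduce hydrogen peroxide, Prdx2 and Prdx4 rose and the other 4 did not pass. Cytosolic Prdx2 (ENSMUSG00000005161, chromosome 8, 84969587 to 84974834) was at 42.7, 40.6 and 49.0 FPKM in naive cells and at 99.2, 96.2 and 90.8 FPKM in activated WT libraries. The log2 fold change was 1.10 (SE 0.0806, limma adjusted p = 3.38e-05). Prdx4, the form of the endoplasmic reticulum, was at 10.1, 8.55 and 12.1 FPKM in naive cells and at 32.0, 28.1 and 19.9 FPKM in activated WT libraries. The groups were separate although activated replicate 3 lay well below the other 2 (log2 fold change 1.28, SE 0.193, limma adjusted p = 0.00101). Mitochondrial Prdx3 was at 37.8 ± 5.15 and 41.1 ± 0.276 FPKM, and Prdx1, Prdx5 and Prdx6 had log2 fold changes between 0.15 and 0.21 with adjusted p of at least 0.198. Srxn1, which encodes the enzyme that restores over-oxidized peroxiredoxins, went from 0.0932 ± 0.0467 to 0.537 ± 0.138 FPKM (log2 fold change 0.49, limma adjusted p = 0.0107), a low level in both groups.

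Among glutathione genes, the catalytic subunit of the rate-limiting ligase fell and the last enzyme of synthesis rose slightly. Gclc went from 16.5 ± 1.35 to 9.67 ± 1.24 FPKM (log2 fold change -0.72, SE 0.0981, limma adjusted p = 0.000636), whereas its regulatory partner Gclm was at 25.7 ± 2.29 and 24.2 ± 0.952 FPKM (limma adjusted p = 0.439). Gss, the synthetase gene, was at 5.74 ± 0.611 and 6.98 ± 0.149 FPKM (limma adjusted p = 0.0492). On the opposite strand it overlaps Acss2 over 22544 bases, and without a known strand setting their reads cannot be told apart. The glutathione reductase gene Gsr and Slc7a11 were not called. Gpx4, which protects membrane lipids from peroxidation, rose from 85.5 ± 16.5 to 127 ± 8.18 FPKM (limma adjusted p = 0.00556), and Gpx1, a peroxidase of soluble peroxides, fell from 102 ± 10.6 to 76.6 ± 5.28 FPKM (limma adjusted p = 0.00537). Gsto1, an omega-class glutathione transferase gene, was at 5.67, 5.74 and 7.16 FPKM in naive cells and at 21.6, 24.0 and 25.9 FPKM in activated WT libraries. All activated values were far above the naive ones (log2 fold change 1.79, SE 0.167, limma adjusted p = 0.0001). Gstp1 has the close copies Gstp2 and Gstp3 next to it, so its level of 104 ± 13.0 and 99.5 ± 18.5 FPKM is uncertain.

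Glrx encodes the cytosolic glutaredoxin that removes glutathione from protein thiols, and it had the largest log2 fold change of FPKM + 1 among the tested members. As a ratio of mean FPKM, its 3.99 was below the 5.76 of Srxn1, which lay at a far lower level. Glrx was at 14.4, 12.0 and 16.9 FPKM in naive cells and at 61.2, 61.4 and 50.2 FPKM in activated WT libraries (log2 fold change 1.93, SE 0.141, limma adjusted p = 3.25e-05). Naive and activated values were far apart. Glrx3, an iron-sulfur protein of the cytosol, rose less (29.0 ± 2.33 to 40.3 ± 0.954 FPKM, limma adjusted p = 0.00218), and the mitochondrial Glrx2 and Glrx5 were not called (adjusted p = 0.219 and 0.652).

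Superoxide dismutases went in opposite directions. Sod1 of the cytosol rose from 186 ± 21.3 to 316 ± 25.1 FPKM (log2 fold change 0.77, limma adjusted p = 0.000396), and Sod2 of the mitochondrial matrix fell from 10.2 ± 0.322 to 7.61 ± 0.574 (log2 fold change -0.38, limma adjusted p = 0.00216). The catalase gene Cat was at 31.1 ± 0.378 and 30.8 ± 2.16 FPKM, with a log2 fold change of -0.02 and an SE of 0.0663.

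Nfe2l2 (ENSMUSG00000015839, chromosome 2, 75675513 to 75704641, minus strand) was at 39.6, 40.2 and 41.5 FPKM in the naive and at 20.4, 23.7 and 26.5 FPKM in the activated WT libraries. The naive libraries were nearly equal and all above the activated ones (log2 fold change -0.76, SE 0.0890, limma adjusted p = 0.000292). Keap1 was at 20.9, 19.0 and 20.8 FPKM in naive cells and at 21.7, 18.7 and 20.9 FPKM in activated WT libraries, and the groups overlapped (limma adjusted p = 0.889). Hmox1, the heme oxygenase gene and an NRF2 and BACH1 target, was at 1.65, 3.34 and 2.14 FPKM in naive cells and at 5.61, 5.55 and 6.20 FPKM in activated WT libraries, a rise (log2 fold change 1.04, SE 0.203, limma adjusted p = 0.0035). Nqo1, a quinone reductase gene, was at 0.156 ± 0.0269 and 0.190 ± 0.0339 FPKM and was not tested.

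In the pentose phosphate pathway 3 of the 4 members rose. G6pdx (ENSMUSG00000031400, chromosome X, 74409483 to 74429194, minus strand) encodes glucose-6-phosphate dehydrogenase, the entry step that makes NADPH. It was at 14.4, 14.8 and 14.0 FPKM in naive cells and at 24.8, 25.0 and 25.1 FPKM in activated WT libraries. Replicates were within 1 FPKM of each other in both groups (log2 fold change 0.75, SE 0.0575, limma adjusted p = 4.14e-05). G6pdx overlaps Ikbkg on the other strand over 19712 bases, and Ikbkg was at 20.3 and 27.6 FPKM in the same groups. Pgd, the second NADPH-producing enzyme, was at 31.5, 34.5 and 31.6 FPKM in naive cells and at 70.1, 68.1 and 54.8 FPKM in activated WT libraries (log2 fold change 0.95, SE 0.101, limma adjusted p = 0.000185). Tkt, the transketolase of the non-oxidative branch, was at 42.8, 40.7 and 48.6 FPKM in naive cells and at 109, 94.3 and 82.6 FPKM in activated WT libraries (log2 fold change 1.09, SE 0.113, limma adjusted p = 0.000166). For both genes the groups were separate, with activated replicate 3 the lowest of its group. Taldo1, the transaldolase of the same branch, was at 91.7, 97.2 and 101 FPKM in naive cells and at 95.3, 78.9 and 101 FPKM in activated WT libraries, and its groups overlapped (limma adjusted p = 0.502).

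**Figure D2:**
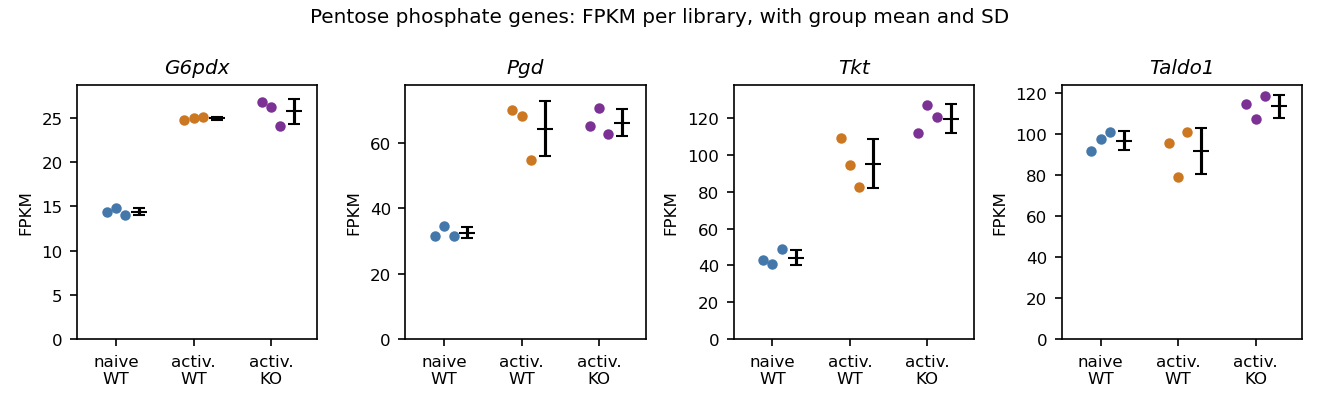
FPKM of G6pdx, Pgd, Tkt and Taldo1 in each library (points) with the group mean and SD (bars), for 3 libraries a group and axes from 0. G6pdx, Pgd and Tkt are higher in all 6 activated libraries than in the 3 naive ones, and Taldo1 overlaps between naive and activated WT.

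Marker genes of other blood cells also moved between these groups. The 9 neutrophil markers summed to 58.4 to 691 FPKM in naive and to 0.175 to 0.766 FPKM in activated WT libraries, with Camp and Ngp listed at 0 in all 3 of the latter. Macrophage and monocyte markers (8 genes) summed to 22.3 to 192 and 5.77 to 8.69 FPKM, erythroid markers (7 genes) to 63.6 to 84.2 and 0.816 to 1.02 with Slc4a1 listed at 0 in all activated libraries, and NK cell markers (5 genes) to 11.5 to 48.2 and 2.36 to 5.33. CD8 T cell markers (2 genes) summed to 9.48 to 41.4 in naive and 147 to 230 FPKM in activated WT libraries, and B cell markers (6 genes) to 2.95 to 175 and 132 to 167. The part of these cells in the changes of the members was not tested. In such sorted bulk samples, a change in the number of cells of a type and in the RNA per cell cannot be told apart.

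In the knockout, 4 members were higher than in activated WT cells: Txn1, its reductase gene Txnrd1, Prdx1, which thioredoxin reduces, and Srxn1, which repairs Prdx1. They are 11.4% of the 35 tested members, and 3.3% of all tested genes were called higher. No member was called lower, where 0.84% of all tested genes were. Groups did not overlap at 18 members higher (51.4%, against 22.8% of all tested genes) and at 1 lower, Txnip (2.86%, against 8.36%). The median log2 fold change of the members was 0.22, and that of all tested genes was 0.06. On these deposited values 32 members (91.4%) lay above 0, all but Txnip, Gstp1 and Nfe2l2, as did 60.5% of all tested genes. Median-of-ratios scaling sets the median of all genes at 0.00. With it 27 members lay above 0, as did 49.3% of all tested genes, and the members' median was 0.14. On that scale the groups did not overlap, with higher knockout values, at 13 of the 35 tested members and at 14.5% of all tested genes.

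These 4 calls were not stable. None of the members was called higher with median-of-ratios or quantile scaling, with the replicate number as a block, with only the 6 libraries compared, or without naive replicate 1, activated WT replicate 2 or 3, or knockout replicate 2 or 3. Without activated WT replicate 1 there was 1 (Txn1), and without naive replicate 2 there were 2 (Srxn1 and, not among the 4, Gclm), while array weights called 18 higher and 1 lower, and leaving out knockout replicate 1 called 6 higher and 1 lower. The direction of the 4 genes was the same in every alternative.

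Txn1 was at 165, 132 and 126 FPKM in activated WT and at 196, 233 and 241 FPKM in knockout libraries. All 3 knockout values lay above the highest WT value, and the mean was 1.58 times as high (log2 fold change 0.66, SE 0.127, limma adjusted p = 0.0382, range 0.00588 to 0.148 over the alternatives). Txnrd1 (ENSMUSG00000020250, chromosome 10, 82833951 to 82897712, plus strand) encodes the selenoprotein that passes electrons from NADPH to thioredoxin. It was at 20.99, 17.9 and 20.7 FPKM in activated WT and at 26.1, 32.5 and 26.4 FPKM in knockout libraries. The groups did not overlap, and knockout replicate 2 was the highest (log2 fold change 0.49, SE 0.0981, limma adjusted p = 0.0411, range 0.00792 to 0.15). The naive level of 20.6 ± 0.208 FPKM was close to that of activated WT. Txnrd1 overlaps Eid3 on its own strand over 1305 bases and Gm38560 on the other strand over 13276 bases. Neither had an FPKM value, so their part in the reads of Txnrd1 is unknown.

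Prdx1 (ENSMUSG00000028691, chromosome 4, 116685544 to 116700822, plus strand) was at 165, 145 and 144 FPKM in activated WT and at 192, 222 and 243 FPKM in knockout libraries. Again all knockout values were higher (log2 fold change 0.53, SE 0.111, limma adjusted p = 0.0449, range 0.00688 to 0.161). Srxn1 (ENSMUSG00000032802, chromosome 2, 152105516 to 152111376, plus strand) was at 0.678, 0.402 and 0.532 FPKM in activated WT and at 1.22, 1.68 and 1.19 FPKM in knockout libraries. Its level was low, but the knockout mean was 2.53 times that of activated WT and the groups were separate (log2 fold change 0.62, SE 0.121, limma adjusted p = 0.0406, range 0.0079 to 0.139).

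Nqo1, Gclm and Txnip were picked for fuller description after their values were seen. Nqo1 was at 0.168, 0.229 and 0.173 FPKM in activated WT and at 0.419, 0.571 and 0.678 FPKM in knockout libraries, so that all knockout values were above all others at a level below 1 FPKM. It was under the filter, and in the fit with no filter its limma adjusted p was 0.0353. Gclm was at 25.3, 23.7 and 23.7 FPKM in activated WT and at 29.5, 30.9 and 33.3 FPKM in knockout libraries, which did not overlap (log2 fold change 0.35, SE 0.0794, limma adjusted p = 0.0509). It overlaps the pseudogene Gm6061 on its own strand over 492 bases, at 107 and 134 FPKM in the same groups, and Gm17494 on the other strand over 14775 bases, at 124 and 149 FPKM, so its value is uncertain. Txnip was at 259, 286 and 266 FPKM in activated WT and at 231, 116 and 170 FPKM in knockout libraries. All knockout values were lower, with a wide spread between them (log2 fold change -0.70, SE 0.235, limma adjusted p = 0.121).

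**Figure D3:**
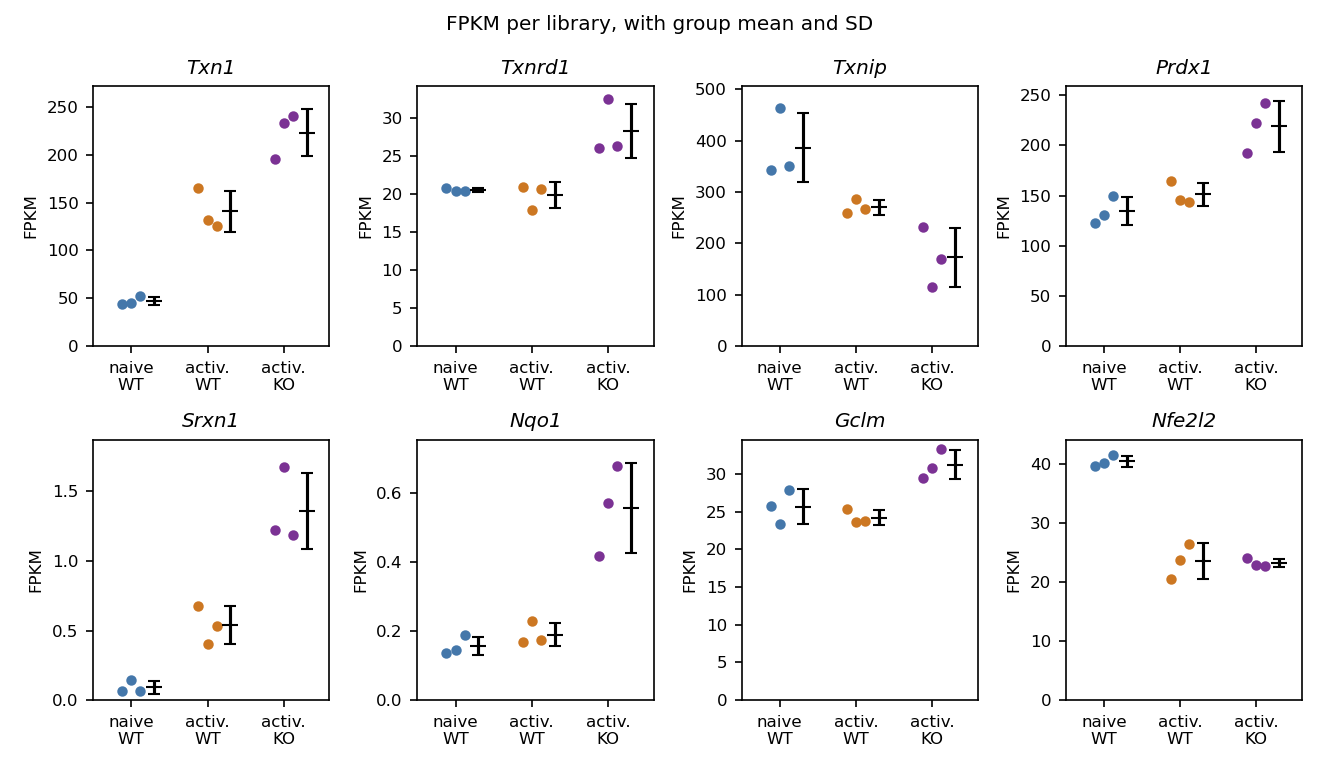
FPKM of 8 members in each library (points) with the group mean and SD (bars), 3 libraries a group, axes from 0. For Txn1, Txnrd1, Prdx1, Srxn1, Nqo1 and Gclm the 3 knockout points lie above the 3 activated WT points, Txnip shows the reverse, and Nfe2l2 overlaps.

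Promoters of the members were searched for the core of the antioxidant response element, TGACNNNGC, on both strands, in windows of 300 bases from 250 before to 50 after each RefSeq start (GRCm38.p6). The table held promoters of 32 members, and 8 of these genes had the motif (25%), as did 16.2% of the 14580 genes of the expression table with a promoter. The 8 were G6pdx, Gclm, Nfe2l2, Pgd, Prdx1, Sod1, Srxn1 and Txnrd1. Of the 4 members called higher in the knockout, whose calls were not stable, Prdx1, Srxn1 and Txnrd1 held it and Txn1 did not. Of the other 28 members with a promoter 5 held it. On activation 4 of the 13 risers with a promoter held it (G6pdx, Pgd, Sod1 and Srxn1), as did 1 of 3 falls (Nfe2l2). For Txnrd1 and Prdx1, called higher and with the motif before the RefSeq start, the stretch around it is shown, read 5′ to 3′ on the gene's strand with the motif in capitals. In both it appears as its reverse complement. The first is chr10:82858956-82859178, in an intron of the annotated Txnrd1 gene, with the motif 92 bases before the RefSeq start. The second is chr4:116685349-116685543, directly before Prdx1, with the motif 133 bases before the RefSeq start.
Txnrd1: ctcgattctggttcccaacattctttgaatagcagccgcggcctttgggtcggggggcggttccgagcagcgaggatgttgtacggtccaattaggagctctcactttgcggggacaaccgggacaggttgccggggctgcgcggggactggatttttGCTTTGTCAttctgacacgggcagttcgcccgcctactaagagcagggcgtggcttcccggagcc
Prdx1: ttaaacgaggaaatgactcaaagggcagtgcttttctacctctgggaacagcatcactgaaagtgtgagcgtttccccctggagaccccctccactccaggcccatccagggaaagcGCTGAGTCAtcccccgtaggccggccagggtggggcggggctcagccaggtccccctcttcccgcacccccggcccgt

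Shorter stretches, with 15 bases on each side where the window allows, are shown for 3 members whose motif lies before the gene and that were not called in the knockout, at chr3:122245408-122245446 for Gclm, chr16:90220691-90220729 for Sod1 and chr2:75704880-75704913 for Nfe2l2 on the minus strand.
Gclm: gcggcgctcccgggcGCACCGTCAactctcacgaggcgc
Sod1: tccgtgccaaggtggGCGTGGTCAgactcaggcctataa
Nfe2l2: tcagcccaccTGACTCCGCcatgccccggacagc
In Srxn1, Pgd and G6pdx the stretch of motif and flanking bases overlaps an exon of the GENCODE annotation. The motifs there are GCTAGGTCA, TGACATTGC and GCTCAGTCA. A match is a description of letters and says nothing of binding in these cells.

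No other member passed the test between the activated groups. Besides the genes above, the groups did not overlap, with higher knockout values that missed the test, at Txnrd2, Prdx2, Prdx3, Slc7a11, Gsr, Gpx1, Glrx3, Glrx5, Sod1, Sod2, Keap1, Taldo1 and Tkt. The closest to the threshold after Gclm were Sod2 at 7.61 ± 0.574 and 9.48 ± 0.147 FPKM (limma adjusted p = 0.0563) and Glrx3 at 40.3 ± 0.954 and 50.8 ± 4.28 FPKM (limma adjusted p = 0.066). The others were Gpx1 at 76.6 ± 5.28 and 96.9 ± 1.02 FPKM (limma adjusted p = 0.0672) and Glrx5 at 30.4 ± 3.69 and 40.2 ± 1.94 FPKM (limma adjusted p = 0.0691). Nfe2l2 was at 24.0, 22.8 and 22.7 FPKM in the knockout, inside the activated WT range, with a log2 fold change of -0.01 and an SE of 0.0890. Keap1 was at 22.1, 23.5 and 23.6 FPKM there, above all WT values (log2 fold change 0.17, limma adjusted p = 0.2). Hmox1 was at 4.68, 7.06 and 7.05 FPKM in the knockout and overlapped with activated WT (limma adjusted p = 0.86).

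In the pentose phosphate pathway the oxidative enzymes overlapped between the activated groups. G6pdx was at 26.8, 26.2 and 24.1 FPKM in the knockout (log2 fold change 0.04, SE 0.0575, limma adjusted p = 0.711) and Pgd at 65.1, 70.8 and 62.5 (log2 fold change 0.05, SE 0.101, limma adjusted p = 0.837). Tkt was at 112, 127 and 120 FPKM and Taldo1 at 115, 107 and 118 FPKM. Both were above every activated WT library without passing (limma adjusted p = 0.124 and 0.103).

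**Figure D4:**
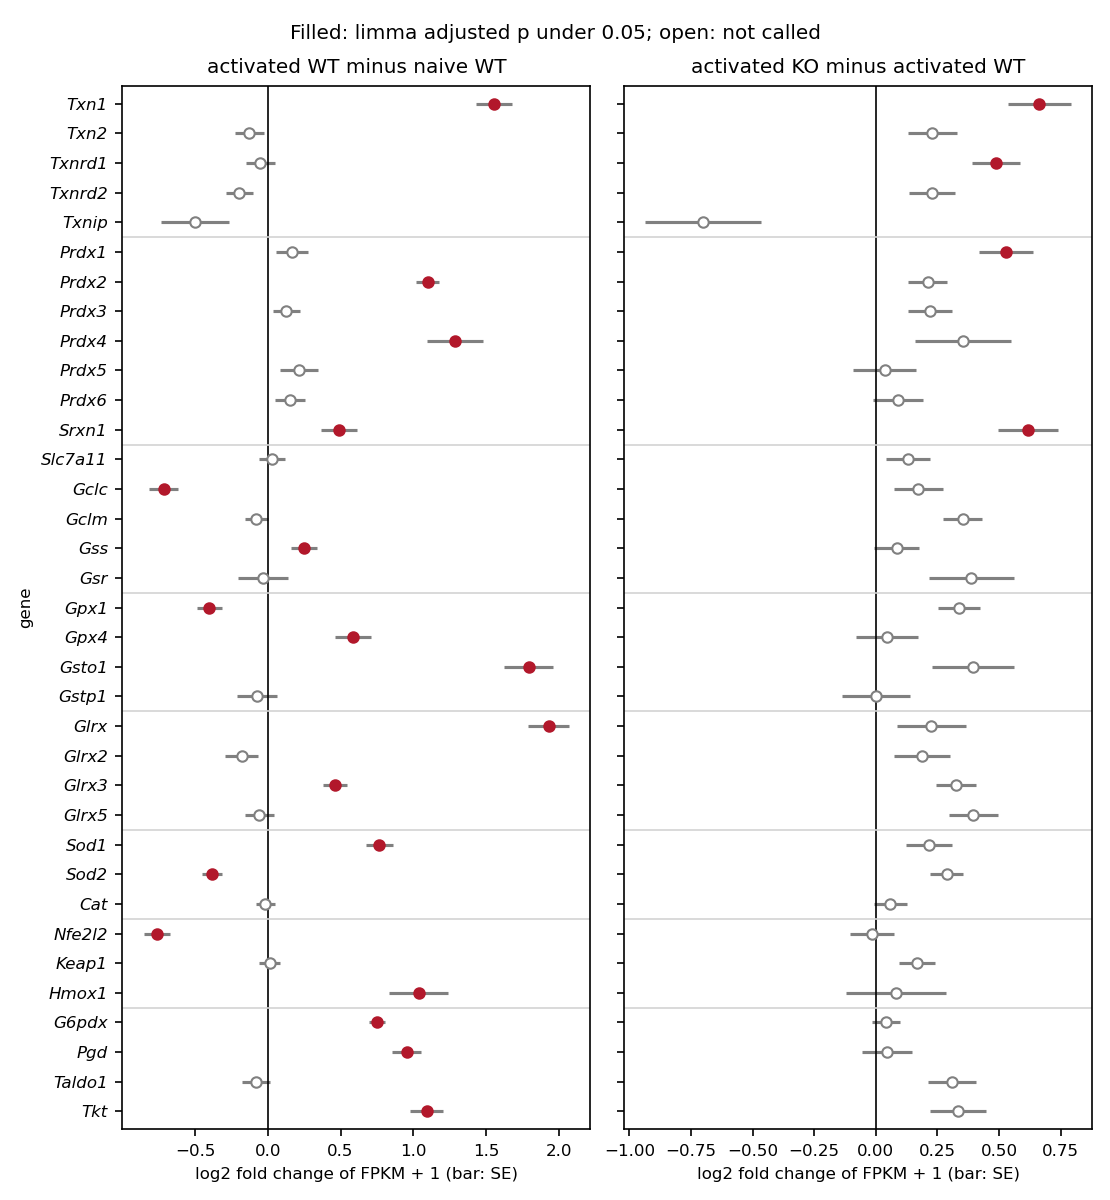
Log2 fold changes of FPKM + 1 with standard errors for the 35 tested members, activated minus naive WT on the left and knockout minus activated WT on the right, each panel with its own scale. Filled points are called by limma at an adjusted p under 0.05: 18 on the left and 4 on the right. Both comparisons use the same activated WT libraries.

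Marker sums were as follows between the activated groups. CD8 T cell markers summed to 147 to 230 FPKM in activated WT and 220 to 279 in knockout libraries, B cell markers to 132 to 167 and 122 to 185, macrophage and monocyte markers to 5.77 to 8.69 and 5.65 to 8.26, and NK cell markers to 2.36 to 5.33 and 4.78 to 8.25. Neutrophil markers summed to at most 1.28 FPKM and erythroid markers to at most 1.72 FPKM in every activated library. Of single markers, Eomes, a transcription factor gene listed with the NK cell markers and also active in T cells, was called higher in the knockout. It went from 1.83 ± 0.227 to 4.54 ± 1.23 FPKM without overlap (log2 fold change 0.95, limma adjusted p = 0.0323), and the call held in 11 of 19 alternatives. Cd28 (147 ± 13.0 and 117 ± 2.93 FPKM) and Cd3d (455 ± 42.8 and 392 ± 13.6 FPKM), both general T cell markers, were lower in the knockout without overlap. Both missed the test (limma adjusted p = 0.0576 and 0.179). The part of the CD8, NK and general T cell markers in the differences of the members was not tested.

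Ratios of 2 members within a library do not change when all its values are multiplied by a common factor, as in median-of-ratios scaling. Quantile normalization can change them, and the ratios here are of deposited values. For 8 such pairs, chosen after the values were seen, log2 ratios were compared with exact permutation tests (two-sided). With 3 libraries on each side such a test cannot give a p below 0.1, so none of the 16 comparisons could pass. The ratio of Txn1 to its inhibitor Txnip was 0.128, 0.0978 and 0.148 in naive, 0.639, 0.462 and 0.473 in activated WT and 0.847, 2.02 and 1.42 in knockout libraries. Each group lay wholly above the one before it, by 2.08 and then by 1.37 on the log2 scale (exact p = 0.1 and adjusted p = 0.2 for both). In the knockout this ratio spread widely, with replicate 1 the lowest and replicate 2 the highest, and the second difference was between 1.08 and 1.70 with any 1 library left out.

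Of the pairs of a cytosolic and a mitochondrial gene, 3 separated naive from activated WT libraries. The ratio of Txn1 to Txn2 was 0.685 ± 0.0204 in naive and 2.28 ± 0.581 in activated WT libraries, that of Sod1 to Sod2 was 18.2 ± 1.93 and 41.8 ± 5.39, and that of Glrx to Glrx2 was 0.531 ± 0.0832 and 2.46 ± 0.616, each without overlap (exact p = 0.1 and adjusted p = 0.2). Txnrd1 to Txnrd2 (2.53 ± 0.263 and 2.85 ± 0.392) and Prdx1 to Prdx3 (3.59 ± 0.334 and 3.68 ± 0.306) overlapped. Between activated WT and knockout, Prdx1 to Prdx3 was higher without overlap (4.55 ± 0.455 in the knockout, log2 difference 0.31, exact p = 0.1, adjusted p = 0.2), while the pairs of Txn1, Txnrd1, Sod1 and Glrx overlapped. Within single pathways, Gclm to Gclc was 1.57 ± 0.268 in naive and 2.54 ± 0.362 in activated WT libraries, and Tkt to Taldo1 was 0.456 ± 0.0331 and 1.05 ± 0.203, both without overlap. In the knockout they were 2.85 ± 0.286 and 1.06 ± 0.112, which overlapped with activated WT.

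**Figure D5:**
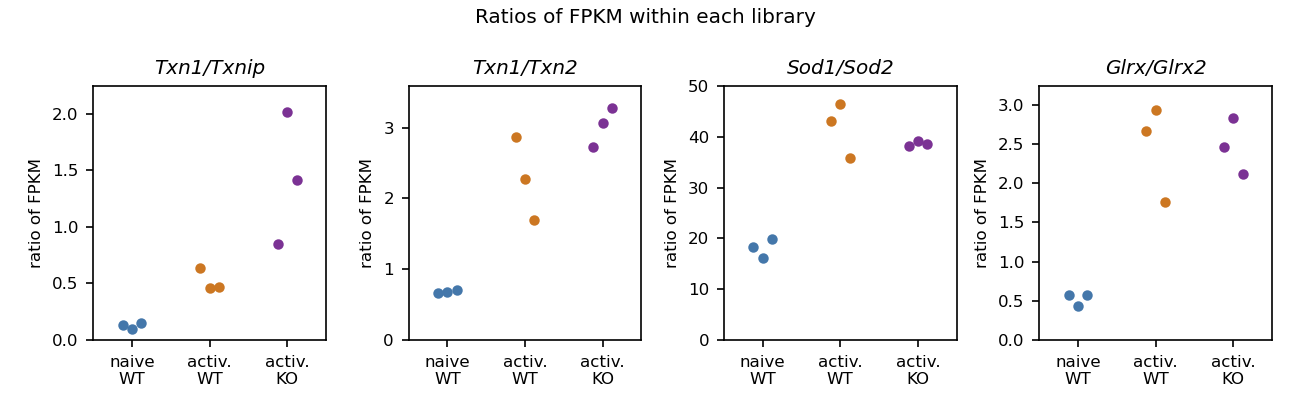
Ratio of FPKM of 2 members within each library (points), for 4 pairs and 3 libraries a group, axes from 0. Txn1/Txnip is higher in every activated WT than in every naive library and higher again in every knockout library, whereas the other 3 pairs overlap between activated WT and knockout.

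The knockout was also set against naive WT cells, a contrast of genotype and stimulation at once that shares its libraries with the other 2. Of the tested members 19 were higher (54.3%, against 31.8% of all tested genes) and 3 lower, Txnip, Gclc and Nfe2l2 (8.57%, against 25.1%). Beside the genes that rose in activated WT cells, the higher ones include Txnrd1 (log2 fold change 0.44, limma adjusted p = 0.00593), Prdx1 (0.70, 0.00114), Prdx3 (0.35, 0.0116), Gclm (0.28, 0.0184) and Glrx5 (0.34, 0.022). Txnip was lower by a log2 fold change of -1.20 (limma adjusted p = 0.00304). Gpx1 and Sod2, lower in activated WT than in naive cells, had log2 fold changes of -0.06 and -0.10 here and were not called (limma adjusted p = 0.555 and 0.253). Gpx1 overlapped between the groups, whereas Sod2 was lower in every knockout than in every naive library.

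Other genes of the same pathways were taken from 7 lists of 103 symbols, of which 84 were tested. On activation 28 rose and 17 fell (33.3% and 20.2%, against 26.2% and 25.8% of all tested genes). Of 7 tested further pentose phosphate genes 14.3% rose and 42.9% fell. Pgls, the lactonase between G6pdx and Pgd, rose (38.6 ± 8.40 to 56.8 ± 5.98 FPKM), and 3 fell, among them Rpia, the ribose-5-phosphate isomerase (24.0 ± 1.98 to 16.1 ± 1.04), and Prps2 (31.3 ± 2.88 to 22.2 ± 0.963). Among 12 tested genes of a list of other NADPH sources and related folate enzymes 16.7% rose and 16.7% fell. The risers were the folate enzyme genes Mthfd2 (25.9 ± 1.18 to 37.5 ± 2.86) and Mthfd1l (15.8 ± 1.57 to 30.1 ± 9.95). Their rise is no measure of NADPH supply. Mthfd1 and the mitochondrial transhydrogenase gene Nnt (9.96 ± 1.62 to 4.87 ± 1.38) fell.

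Of 20 tested further glutathione genes 7 rose (35%) and 1, Hagh, fell (5%), beside the 26.2% and 25.8% of all tested genes. Gstt2, a theta-class transferase gene, rose the most of those at 5 FPKM or more (7.65 ± 2.13 to 30.3 ± 1.29 FPKM, log2 fold change 1.89, limma adjusted p = 6.7e-05), and Gstp3 (40.8 ± 9.90 to 73.7 ± 3.73) and Esd (61.9 ± 5.36 to 110 ± 3.32) rose less. Of 15 tested thioredoxin-fold, methionine sulfoxide and sestrin genes 9 rose (60%) and 3 fell (20%). Sesn3 (44.0 ± 8.93 to 83.1 ± 8.35 FPKM) rose and Sesn1 (47.7 ± 1.10 to 30.2 ± 2.79) fell, both of the stress-induced sestrin family, and the nucleoredoxin gene Nxn rose from 3.98 ± 0.460 to 7.09 ± 0.954. Of 17 tested other NRF2 pathway genes 4 rose and 4 fell (23.5% each), shares near those of all tested genes. The falls include Bach1, a repressor at the same DNA elements (7.75 ± 0.733 to 4.28 ± 0.655 FPKM, limma adjusted p = 0.00166), and the epoxide hydrolase gene Ephx1 (60.5 ± 5.74 to 35.6 ± 9.45). Blvrb, a biliverdin reductase gene, rose (4.85 ± 1.41 to 12.3 ± 1.14), and Blvra, the other such gene of the list, was not called. Of 7 selenoprotein synthesis genes 2 rose (28.6%), Sephs1 and Sephs2, and 4 fell (57.1%), among them Trnau1ap and Sepsecs. Of 6 tested NADPH oxidase genes, whose enzyme makes superoxide, 3 rose (50%), Ncf1, Ncf4 and Rac2, and none fell. The organizer subunit Ncf1 went from 5.49 ± 2.59 to 107 ± 13.4 FPKM (log2 fold change 4.12, limma adjusted p = 1.7e-05), while the catalytic subunit Cybb was at 4.61 and 7.66 FPKM and was not called.

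In the knockout against activated WT, 5 of these 84 genes were higher and 1 was lower (5.95% and 1.19%, against 3.3% and 0.84% of all tested genes). The higher ones were the ribose-phosphate genes Rpia (16.1 ± 1.04 and 20.9 ± 0.785 FPKM, limma adjusted p = 0.0457) and Prps1 (22.1 ± 0.755 and 30.5 ± 2.30, limma adjusted p = 0.0276), Mthfd1 (10.9 ± 0.831 and 19.8 ± 3.34, limma adjusted p = 0.0232), Sesn2 (3.59 ± 0.130 and 6.94 ± 1.30, limma adjusted p = 0.0253) and Sephs2 (22.0 ± 0.749 and 29.9 ± 2.92, limma adjusted p = 0.0449). Esd, the formylglutathione hydrolase gene, was the lower one (110 ± 3.32 and 83.3 ± 5.10, limma adjusted p = 0.0398). None of the 17 other NRF2 pathway genes tested was called by limma. Like the members' calls, these 6 depended on the settings. None held with the replicate block, and over 19 alternatives they held in 5 (Rpia), 6 (Sephs2), 9 (Prps1), 9 (Esd), 12 (Sesn2) and 13 (Mthfd1), with no change of sign.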

How the data were processed

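The authors deposited 1 table of FPKM values with a column per library. TopHat2, Cufflinks, Cuffdiff and the build GRCm38 are named, without roles, per the submitters' processing notes. The sources used here give no versions, annotation, strand setting or read depth, so no counting interval was computed. Groups and replicate numbers came from the sample titles. Gene symbols were matched for 24876 of 25759 identifiers, and positions came from GENCODE M21 (GRCm38). After removal of genes whose mean over 9 libraries was under 0.5 FPKM, group means were fitted to log2(FPKM + 1) of all libraries at once, using limma (version 3.58.1, R 4.3.3) with an intensity trend. The code was checked on simulated data. The 36 members, the other lists and the rules for genes described by library (called in the knockout, or non-overlapping on activation with an absolute log2 fold change of at least 1 and 5 FPKM in the higher group, plus Nfe2l2, Keap1 and the pentose phosphate members) were chosen with earlier results of these data known. For other pathway genes the rule named at most 3 called genes of a list with the largest change at that level; Mthfd1, Sephs2, Hagh and Cybb were added after their values were seen. Alternatives were other pseudocounts, filters, scalings, weights, spreads, a replicate block and leaving out each library. Promoter sequences are RefSeq's (GRCm38.p6). No protein table was used here.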

Additional observations from a re-analysis of the deposited data

How the results depend on the processing

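The counts on activation and for knockout against naive cells stayed within 1.5 times under every alternative: 12 to 18 members higher and 4 to 6 lower on activation, and with any 1 library left out 13 to 16 and 4 to 6. Against activated WT the number of members called higher in the knockout, 4, was 2 with no filter (Srxn1, and Nqo1, which was not among the 4), 0 with median-of-ratios scaling, 0 with quantile normalization, 0 with only the 6 libraries compared, 18 with array weights, 2 without intensity trend and 0 with the replicate block, and 0 to 6 with any 1 library left out. The count of members called lower, 0, became 1 with array weights and 0 to 1 with a library left out. All genes called, 626, became 416 with no filter, 306 with median-of-ratios scaling (166 higher, 140 lower), 324 with quantile normalization (183 higher, 141 lower), 92 with only 6 libraries, 3851 with array weights, 58 with the replicate block, and 64 to 1037 with a library left out. In that comparison 3786 genes had an unadjusted p under 0.05. The causes were not tested. No label says whether replicate numbers pair the libraries, and correlations between libraries do not settle it. Deviations from group means of same-numbered libraries correlated at 0.0027 to 0.0540 over 9 pairs, and of other pairs at -0.0682 to 0.0375. The replicate block took away the 4 knockout calls and the activation call of Gss. No called member changed sign. Read depth is unknown, so values under 1 FPKM are the least certain. Among the members they are those of Nqo1 and Slc7a11 in every library and of Srxn1 in naive and activated WT libraries. In the knockout Srxn1 was at 1.22, 1.68 and 1.19 FPKM, also a low level.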
